A study of Mus musculus with 4 samples.

Results

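The laminin and nidogen genes and the genes of the 2 large heparan sulfate proteoglycans of the basement membrane were examined in mouse pancreatic islets. The 9 genes, chosen by name from the 54532 genes measured, were the laminin chain genes Lama4, Lama5, Lamb1, Lamb2 and Lamc1, the nidogen genes Nid1 and Nid2, the perlecan gene Hspg2 and the agrin gene Agrn. RNA came from islets of male C57BL/6 mice, 10 to 12 weeks old, in 4 libraries. Transgenic mice, which overexpress miR-29a and miR-29b-1 specifically in pancreatic beta cells, gave 2 libraries, and wild-type mice gave the other 2. Neither the promoter that drives the transgene nor the number of mice behind a library is stated in the labels. The p-values thus reflect variation between these libraries alone, and that variation may be technical. Mature miRNAs are not recorded by libraries of long RNA, so the genotype labels were not checked by the level of miR-29. Levels are in FPKM, a count of fragments corrected for gene length and for library size.

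Basement membranes are thin sheets of matrix that underlie epithelia and surround blood vessels, muscle and Schwann cells. Laminins are trimers of an alpha, a beta and a gamma chain that polymerise on the cell surface, and nidogens and perlecan link the laminin sheet to the collagen IV network. In the mouse islet, much of the basement membrane lies around the capillaries and is made by endothelial cells, while beta cells bear receptors for it. The miR-29 family is known for lowering messenger RNAs of matrix proteins, among them collagens and the laminin gamma 1 chain, and the comparison addresses how islet transcripts respond to extra miR-29a and miR-29b-1 in beta cells.

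The mature miR-29 sequences are shown because their shared seed, in capitals (bases 2 to 8), defines the site looked for in the 9 genes. They are given 5′ to 3′ from RefSeq on GRCm38.p6. The genes of miR-29a and miR-29b-1 lie on chromosome 6, minus strand, at 31062673 to 31062694 and 31063025 to 31063047 for the mature forms, and miR-29c comes from chromosome 1, plus strand, 195037600 to 195037621.
miR-29a-3p: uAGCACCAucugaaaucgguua
miR-29b-3p: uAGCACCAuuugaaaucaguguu
miR-29c-3p: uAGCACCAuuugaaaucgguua

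The 7 bases that pair with this seed, TGGTGCT, were searched on the transcript strand of the longest 3′ UTR that GENCODE M21 gives each gene on GRCm38, where that UTR had at least 50 bases. Of the 9 genes, 2 held the match, Lamc1 and Agrn, each a single time. Of the 10723 genes compared that had such a 3′ UTR, 1799 held it (16.8%). The Lamc1 match is followed by the A that lies opposite base 1 of miR-29, a longer match of 8 bases (TGGTGCTA, which contains the shorter) that 363 of the 10723 genes held (3.39%). It starts at base 1398 of a 3′ UTR of 2551 bases. The Agrn match starts at base 157 of 1206 and lacks that A. Both sites are shown with their flanks, the match in capitals, as the sense strand of genes on the minus strand, with Lamc1 at chr1:153220061-153220090 and Agrn at chr4:156166325-156166354.
Lamc1 site: tattatctgacacacTGGTGCTattaatta
Agrn site: tgcagagacaaaaagTGGTGCTgagggact
The other 7 genes held no match in this window, and for Lama4, Lama5, Lamb1 and Lamb2 that window was short, between 110 and 174 bases. A match is a run of letters and not a measured site of binding.

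Reads in genes, recovered from FPKM and gene length, came to 23654135 and 21670854 in transgenic libraries 1 and 2 and to 23730364 and 27080907 in wild-type libraries 1 and 2. Transgenic 1 had 0.0238% of its reads in the 9 genes (0.0231 to 0.0244, exact binomial interval at 95%). This share was 0.0178% in transgenic 2 (0.0173 to 0.0184), against 0.0179% in wild type 1 (0.0174 to 0.0185) and 0.0162% in wild type 2 (0.0157 to 0.0167). Such intervals cover counting error only. The library totals that the FPKM imply were 1.09 and 0.97 times the reads in genes in transgenic libraries 1 and 2. In wild-type libraries 1 and 2 they were 1.01 and 0.96 times those reads. Shares of reads and FPKM are therefore scaled unevenly between libraries, and the authors' factor is not given in what was used here. Each gene had between 157 and 1907 reads in a library. Libraries of the same number lay closer together than those of the same genotype. Pearson's r of log2(FPKM + 1) across the 12716 genes compared, which are not independent replicates, was 0.985 for number 1 and 0.989 for number 2, against 0.950 within each genotype. Differences between genotypes are therefore also given within each number. The labels do not say what the numbers stand for.

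On GRCm38 the alpha chain genes lie at chr10:38965515-39110188 (Lama4) and chr2:180176373-180225859 (Lama5), the beta chain genes at chr12:31265234-31329644 (Lamb1) and chr9:108479736-108490530 (Lamb2), and Lamc1 at chr1:153218922-153332786. The nidogen genes lie at chr13:13437551-13512269 (Nid1) and chr14:19751265-19811787 (Nid2). Hspg2 and Agrn share a chromosome, at chr4:137468769-137570630 and chr4:156165290-156197488. All 9 are protein coding.

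The genes of the basement membrane were expressed at low to moderate levels, and Lamc1 and Hspg2 led. Averaged over the 4 libraries, the order of levels in FPKM was Lamc1 (4.14 ± 0.18, SD, n = 4), Hspg2 (4.08 ± 0.77), Nid1 (3.03 ± 0.14), Lamb2 (2.31 ± 0.52), Agrn (1.88 ± 0.22), Nid2 (1.82 ± 0.36), Lamb1 (1.32 ± 0.26), Lama5 (1.03 ± 0.23) and Lama4 (0.668 ± 0.088). Neighbours in this order overlapped in their libraries except at 2 places. Every library had more Hspg2, with a lowest level of 3.43 FPKM, than the 3.19 FPKM that was the highest level of Nid1. The lowest level of Lama5, 0.799 FPKM, likewise lay above the highest of Lama4, 0.751 FPKM. Lama4 did not reach the level of 1 FPKM in 2 libraries that was needed for the comparison, and the other 8 genes did.

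**Figure D1:**
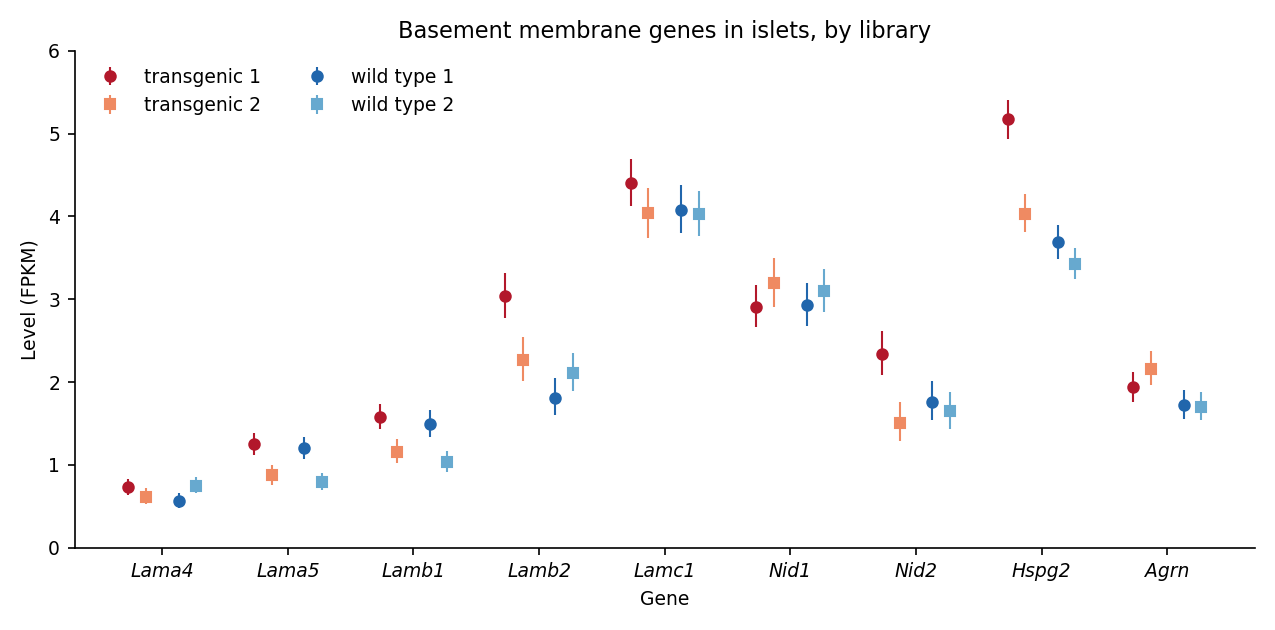
Level in FPKM (vertical axis) of each of the 9 genes (horizontal axis) in transgenic libraries 1 and 2 and wild-type libraries 1 and 2, with bars for the 95% Poisson interval of the reads. Hspg2, Lamb2 and Agrn have both transgenic points above both wild-type points, while Lamb1 and Lama5 are higher in the libraries numbered 1 of both genotypes.

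The alpha chains determine which cell receptors a laminin binds, and both measured here were at similar levels in the genotypes. Lama4, the alpha chain typical of vessel walls, had 0.733 and 0.619 FPKM in transgenic islets, against 0.569 and 0.751 FPKM in wild-type islets. The groups overlapped, with the lowest and the highest library both wild type. In a fit without a filter the log2 difference of Lama4 was 0.01 ± 0.15 (standard error, limma on log2(FPKM + 1), adjusted p = 1.00, n = 2 per group). Lama5, an alpha chain of vessels and epithelia, had 1.25 and 0.873 FPKM in transgenic islets, against 1.20 and 0.799 FPKM in wild-type islets. The groups overlapped, and each genotype had its higher level in library 1. Its log2 difference was 0.05 ± 0.22 (limma adjusted p = 1.00).

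Of the beta chains, Lamb1 differed little between genotypes and Lamb2 was higher in both transgenic libraries. Lamb1, the more widely made beta chain, had 1.58 and 1.16 FPKM in transgenic islets, against 1.50 and 1.03 FPKM in wild-type islets, so the groups overlapped (log2 difference 0.07 ± 0.21, limma adjusted p = 1.00). Lamb2, known from the kidney filter and the neuromuscular junction, had 3.04 and 2.27 FPKM in transgenic islets, against 1.81 and 2.11 FPKM in wild-type islets. Transgenic 1 stood well above the other libraries, and transgenic 2 lay just above wild type 2. The log2 difference of Lamb2 was 0.30 ± 0.17 (limma adjusted p = 1.00), with 0.52 in number 1 and 0.07 in number 2, and 0.14 without transgenic 1.

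Lamc1, the gamma chain of most laminins and the chain that nidogen binds, carries the longer miR-29 match shown earlier and differed between genotypes by less than its error. It had 4.41 and 4.04 FPKM in transgenic islets, against 4.08 and 4.02 FPKM in wild-type islets. All 4 libraries lay within a narrow range, and the groups overlapped. The log2 difference was 0.05 ± 0.12 (limma adjusted p = 1.00), with 0.09 in number 1 and 0.00 in number 2. Its 95% interval ran from -0.28 to 0.37 on the log2(FPKM + 1) scale, and differences within it cannot be distinguished from 0 with these libraries. The RNA was of whole islets, in which fewer cells of a type and less RNA per cell cannot be told apart, and a difference within beta cells cannot be told apart from RNA of the other cells that express the gene.

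The nidogens, which join laminin to collagen IV and to perlecan, overlapped between genotypes. Nid1 had 2.91 and 3.19 FPKM in transgenic islets, against 2.93 and 3.10 FPKM in wild-type islets, and was the steadiest of the 9 genes relative to its level after Lamc1. Its log2 difference was 0.01 ± 0.13 (limma adjusted p = 1.00). Nid2 had 2.34 and 1.51 FPKM in transgenic islets, against 1.77 and 1.65 FPKM in wild-type islets, so the highest and the lowest library were both transgenic. Its log2 difference was 0.10 ± 0.20 (limma adjusted p = 1.00), with 0.27 in number 1 and -0.08 in number 2. Nid2 overlaps the gene Rtraf on the opposite strand, which had 1215 and 1012 reads in transgenic islets and 1320 and 1410 reads in wild-type islets. The use of strand in counting is not stated, so reads of both genes cannot be told apart and the level of Nid2 is uncertain. No other of the 9 genes overlapped a gene with more than 10 reads in a library.

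Both proteoglycan genes were higher in both transgenic libraries than in both wild-type libraries. Hspg2 encodes perlecan, a large proteoglycan that binds growth factors and crosslinks the matrix, and had 5.17 and 4.04 FPKM in transgenic islets, against 3.69 and 3.43 FPKM in wild-type islets. Transgenic 1 was the highest by over 1 FPKM. The log2 difference of Hspg2 was 0.29 ± 0.15 (limma adjusted p = 1.00), with 0.40 in number 1 and 0.18 in number 2, and it ranged from 0.14 without transgenic 1 to 0.44 without transgenic 2. Agrn encodes agrin, which binds laminin and dystroglycan and clusters receptors at the neuromuscular junction, and had 1.94 and 2.16 FPKM in transgenic islets, against 1.72 and 1.70 FPKM in wild-type islets. The groups were apart but close, and the gene with the shorter miR-29 match was thus among those with the higher transgenic levels. Its log2 difference was 0.17 ± 0.14 (limma adjusted p = 1.00), with 0.11 in number 1 and 0.23 in number 2.

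The main test across all genes, with genotype as its only term, called none of these differences. Limma called 0 of the 8 genes compared at an adjusted p under 0.05, and 0 of them had an unadjusted p under 0.05, which was also so in voom on the recovered reads with genotype as the only term. Over all 12716 genes limma called 0, or 0.0%, with 83 at an unadjusted p under 0.05, and voom called 0, with 32. With the library number as a second term, limma again called 0, with an unadjusted p of 0.0262 for Hspg2. Voom with that term called 204 of all genes higher, Hspg2 among them (adjusted p = 0.0257), and 34 lower. With the GC curve also removed, voom did not call Hspg2 (adjusted p = 0.982). The labels do not say that the numbers pair the libraries. Both transgenic libraries lay above both wild-type ones for 3 of the 9 genes, Hspg2, Lamb2 and Agrn, against 12.2% of all genes compared, and below them for 0 of the 9, against 9.03%. The median log2 difference of the 8 genes was 0.08, against 0.01 over all genes compared. It came to 0.03 without transgenic 1, 0.19 without transgenic 2 and 0.18 without wild type 1. All 8 differences were above 0, as were 6780 of all genes (53.3%).

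**Figure D2:**
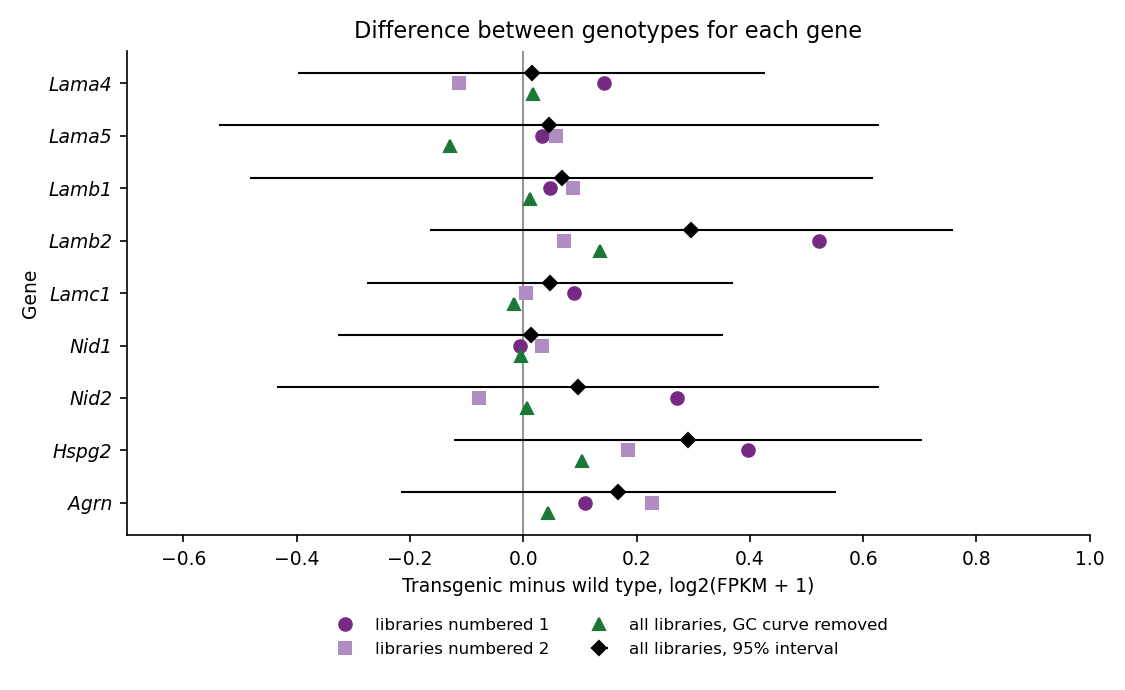
Difference of transgenic minus wild type on the log2(FPKM + 1) scale (horizontal axis) for each gene (vertical axis), as the limma estimate over all libraries with its 95% interval, within the libraries numbered 1 and 2, and with the curve on GC content removed. Every interval spans 0, and removing the curve moved Lama5 from 0.05 to -0.13 and Hspg2 from 0.29 to 0.10.

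The genes that stood higher in transgenic islets are rich in G and C, and across all genes the difference between genotypes moved with GC content. The longest transcript of Hspg2 is 60.9% GC, of Lama5 59.9%, of Lamb2 58.8% and of Agrn 56.5%, and those of the other 5 genes lie at or below 54.6%, against a median of 49.7% over the genes compared. Among the 584 genes above 60% GC the median log2 difference was 0.20, and both transgenic libraries were above both wild-type ones for 37.7% of them. Among the 2256 genes above 55% and up to 60% these values were 0.14 and 27.1%, and among the 3244 genes above 50% and up to 55% they were 0.06 and 14.6%. Among the 816 genes up to 40% GC the median was -0.12, with 1.47%. Across the 12705 genes with a GC content Pearson's r between GC content and the difference was 0.47 and Spearman's rho 0.57, and across the 8 genes here they were 0.71 and 0.57. These are descriptions across genes that share the same 4 libraries. The GC classes were chosen after seeing the data.

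Set beside genes of like GC content, Hspg2, Lamb2 and Agrn lay above their class medians and Lama5 lay below, by description only. With a curve on GC content removed from each library, the log2 difference was 0.10 ± 0.12 for Hspg2, 0.14 ± 0.15 for Lamb2, 0.04 ± 0.15 for Agrn and -0.13 ± 0.20 for Lama5 (limma adjusted p = 1.00 for each). In that setting the values within number 1 and number 2 were 0.15 and 0.06 for Hspg2, 0.31 and -0.04 for Lamb2, and -0.05 and 0.14 for Agrn, so Hspg2 alone of these 3 was above 0 in both. Lamc1 turned to -0.02 ± 0.11 and Nid1 to -0.0037 ± 0.12. The median of the 8 genes was then 0.01, against 0.00 over all genes.

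**Figure D3:**
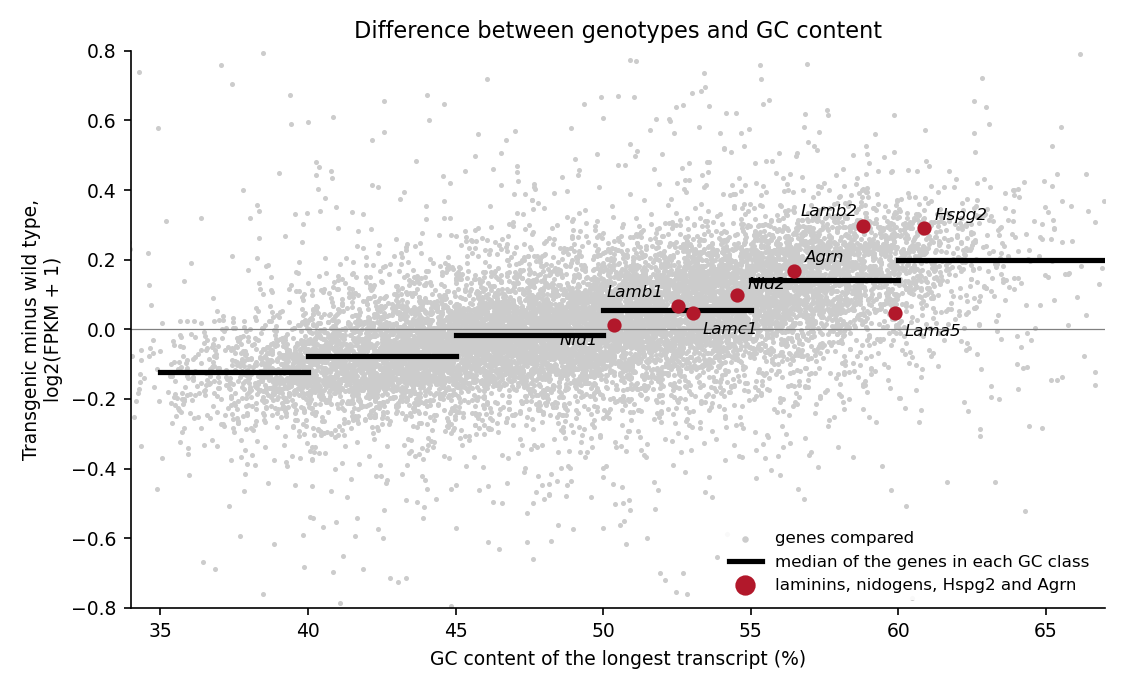
Difference of transgenic minus wild type on the log2(FPKM + 1) scale (vertical axis) against GC content in % (horizontal axis) for the genes compared, with the 8 basement membrane genes labelled and bars for the median of each GC class, the outer classes being open-ended. The medians climb from -0.12 in the class up to 40% to 0.20 in the class above 60%, and 145 genes lie outside the axes.

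Summed over chain types, the beta chain genes were above the alpha chain genes in each library, but barely so in wild type 1. In that library the Poisson interval of Lamb2 alone was 1.60 to 2.04 FPKM, so the order there is not resolved. All 5 alpha chain genes together had 3.43 and 2.78 FPKM in transgenic islets, against 3.31 and 2.75 FPKM in wild-type islets. The 3 beta chain genes had 4.64 and 3.51 FPKM in transgenic islets, against 3.35 and 3.18 FPKM in wild-type islets. The beta sum was higher in both transgenic libraries, and Lamb2 made up most of that gap, while the alpha sums overlapped. The ratio of Lamb2 to Lamb1 was 1.92 and 1.95 in transgenic islets, against 1.21 and 2.04 in wild-type islets, so wild type 1 stood apart from the other libraries. The ratio of Lama5 to Lama4 was 1.71 and 1.41 in transgenic islets, against 2.11 and 1.06 in wild-type islets, and that of Nid1 to Nid2 was 1.24 and 2.12, against 1.66 and 1.88. These ratios overlapped between genotypes.

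**Figure D4:**
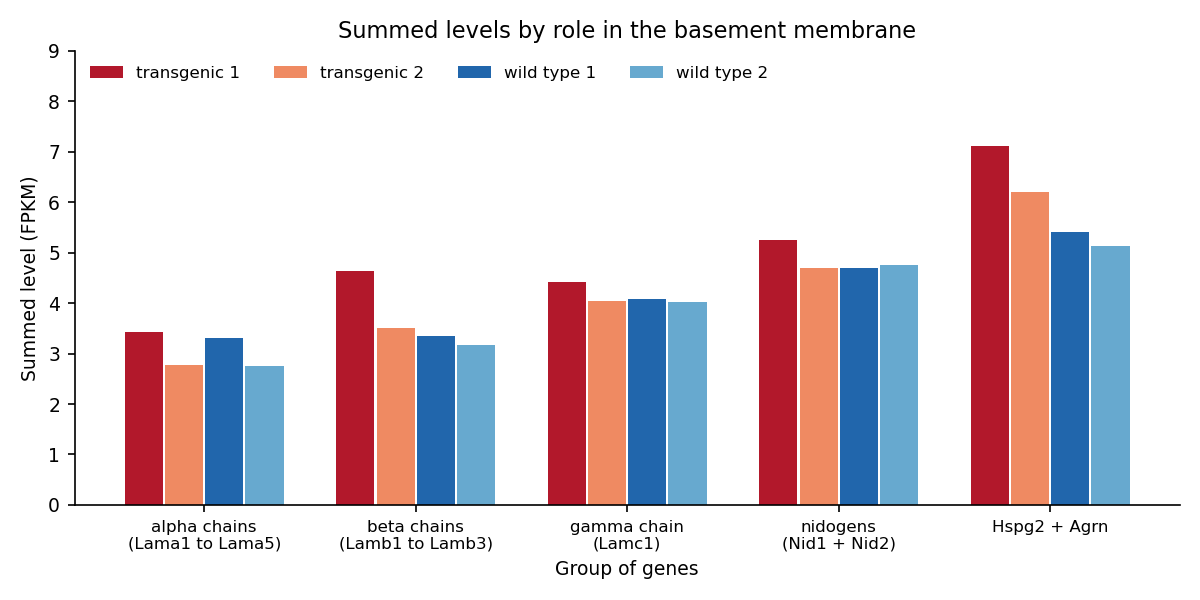
Summed level in FPKM (vertical axis) of the laminin alpha chain genes, the beta chain genes, Lamc1, the nidogen genes, and Hspg2 with Agrn (horizontal axis), a bar for each library. Lamc1 alone is drawn for the gamma chains. All 3 gamma chain genes together had 6.80 and 6.46 FPKM in the transgenic libraries, against 5.85 and 6.55 FPKM in the wild-type ones. Hspg2 with Agrn had 7.11 and 6.20 FPKM in the transgenic libraries, against 5.41 and 5.13 FPKM in the wild-type ones, and the nidogen sums lay between 4.69 and 5.25 FPKM.

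The other laminin chain genes given here were at lower levels than most of the 9. Lama3, an alpha chain of epithelial laminins, had 1.12 and 0.943 FPKM in transgenic islets, against 1.24 and 0.876 FPKM in wild-type islets. The groups overlapped (log2 difference -0.01 ± 0.20, limma adjusted p = 1.00). Lama2, the alpha chain of muscle and Schwann cells, had 0.313 and 0.335 FPKM in transgenic islets, against 0.280 and 0.323 FPKM in wild-type islets. Lamb3, the beta chain that pairs with Lama3, had 4 and 11 reads in transgenic libraries and 6 and 5 in wild-type ones, and the embryonic chain Lama1 had 3 and 1 against 5 and 1. Lamc3 had 23 and 15 reads against 40 and 14. Lama3 and Lamb3, whose proteins assemble with each other, were thus present at unequal levels, with 11 reads or fewer for Lamb3 in each library.

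Both libraries numbered 1 lay above both numbered 2 for 4 of the 9 genes, Lama5, Lamb1, Nid2 and Lamc1. Lama5 had 1.25 and 1.20 FPKM in transgenic 1 and wild type 1, against 0.873 and 0.799 FPKM in transgenic 2 and wild type 2, ratios of number 1 to number 2 of 1.43 in transgenic and 1.50 in wild-type islets. For Lamb1 these ratios were 1.36 and 1.45. Their counting intervals did not overlap between numbers, the lowest bound of Lama5 in number 1 being 1.07 FPKM and the highest in number 2 being 1.00 FPKM. Nid2 and Lamc1 also lay above in number 1, but by ratios of only 1.07 and 1.01 in wild-type islets. Hspg2 was also higher in number 1 within each genotype, by ratios of 1.28 in transgenic and 1.08 in wild-type islets, but wild type 1 lay below transgenic 2. Nid1 alone had both libraries numbered 2 above both numbered 1. Across all genes compared, 32.4% lay above in number 1 and 34.4% in number 2. Acinar and duct cell markers moved with the numbers, with summed levels of the 14 acinar genes of 6606 and 4931 FPKM in number 1 (transgenic, wild type), against 1799 and 1040 FPKM in number 2, and of the 10 duct genes of 542 and 496 FPKM, against 284 and 241 FPKM. The part of these cells in the levels of Lama5 and Lamb1 was not tested.

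Other components of the basement membrane were described from a fixed list of 24 genes, of which 9 were high enough to be compared. Limma called 0 of the 9 higher and 0 lower, with 0 at an unadjusted p under 0.05 in limma and in voom, and their median log2 difference was 0.16, with 0.13 in number 1 and 0.12 in number 2, but 0.03 with the GC curve removed. Col4a1 and Col4a2, the collagen IV chains of all basement membranes, had log2 differences of 0.18 ± 0.15 and 0.27 ± 0.21 (limma adjusted p = 1.00). Col15a1, a collagen that ties vessels to the surrounding matrix, had 3.19 and 2.47 FPKM in transgenic islets, against 2.36 and 2.19 FPKM in wild-type islets. Tinagl1, which encodes a matrix protein that binds laminin, had 1.82 and 2.27 FPKM against 1.66 and 1.75 FPKM. Both transgenic libraries lay above both wild-type ones for 3 of the 9, Col4a1, Col15a1 and Tinagl1, against 12.2% of all genes compared. They lay below for 1, against 9.03%, which was Fras1, a gene of the sheet that anchors skin and kidney epithelia, at 1.46 and 1.46 against 1.52 and 1.52 FPKM. The miR-29 seed match was in 12 of the 24 listed, compared or not, against 16.8% of the genes compared that had such a 3′ UTR. Among the 12 were Col4a1, Col4a2, Col15a1, Tinagl1 and Fras1, and of these 5 Fras1 alone had a difference below 0 (-0.03 ± 0.15). These 5 were named by rule, for a small p or after their values were seen, so their directions do not stand for the 12.

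The receptors for these matrix proteins gave 13 genes compared of 21 listed, and limma called 0 higher and 0 lower, with 0 at an unadjusted p under 0.05 in limma and in voom. Their median log2 difference was 0.10, with 0.00 in number 1, 0.09 in number 2 and 0.01 with the GC curve removed. Bcam, a receptor for laminins with the alpha 5 chain, had 7.80 and 7.17 FPKM in transgenic islets, against 5.98 and 6.38 FPKM in wild-type islets. Itga3, the alpha subunit of a laminin-binding integrin, had 7.55 and 7.08 FPKM against 6.24 and 6.32 FPKM. Sdc2, a cell surface heparan sulfate proteoglycan, had 11.9 and 12.7 FPKM against 15.3 and 13.8 FPKM, and Itgb8, an integrin subunit that activates TGF-beta, had 1.08 and 1.26 FPKM against 1.30 and 2.11 FPKM. Over the 13, both transgenic libraries lay above both wild-type ones for 4 genes and below them for 2, against 12.2% and 9.03% of all genes compared. The 4 receptors given here were named for the smallest p, and their groups were apart, with log2 differences of 0.24 ± 0.13, 0.19 ± 0.12, -0.23 ± 0.14 and -0.30 ± 0.22 (limma adjusted p = 1.00 for each). Bcam and Itga3 have GC contents of 60.8% and 57.9%, and Sdc2 and Itgb8 of 41.6% and 40.4%. Dag1, which encodes dystroglycan, the receptor shared by laminin, perlecan and agrin, had 13.9 and 12.8 FPKM in transgenic islets, against 11.4 and 11.9 FPKM in wild-type islets, and was singled out after its values were seen.

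Enzymes that modify these proteins and proteases that cut them differed as little. Of 19 listed enzymes of collagen folding and of dystroglycan and heparan sulfate glycosylation, 16 were compared, with a median log2 difference of 0.07 (-0.04 with the GC curve removed). Of these, Ext2, which polymerises heparan sulfate, had 0.20 ± 0.15, and Plod3, a collagen lysine hydroxylase gene, had 0.18 ± 0.15. Of 16 listed proteases and inhibitors, 10 were compared, with a median of 0.04 (0.04 with the GC curve removed). Among them Bmp1, a protease that trims collagens and laminins, had 0.20 ± 0.13, Adam17, a sheddase gene, -0.20 ± 0.17, Hpse, the heparanase that cleaves heparan sulfate, -0.16 ± 0.15, and Mmp15, a membrane-bound protease gene, 0.13 ± 0.17. Limma called 0 of the 26 higher or lower (adjusted p = 1.00 for each gene named), with 0 at an unadjusted p under 0.05 in limma and in voom.

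**Figure D5:**
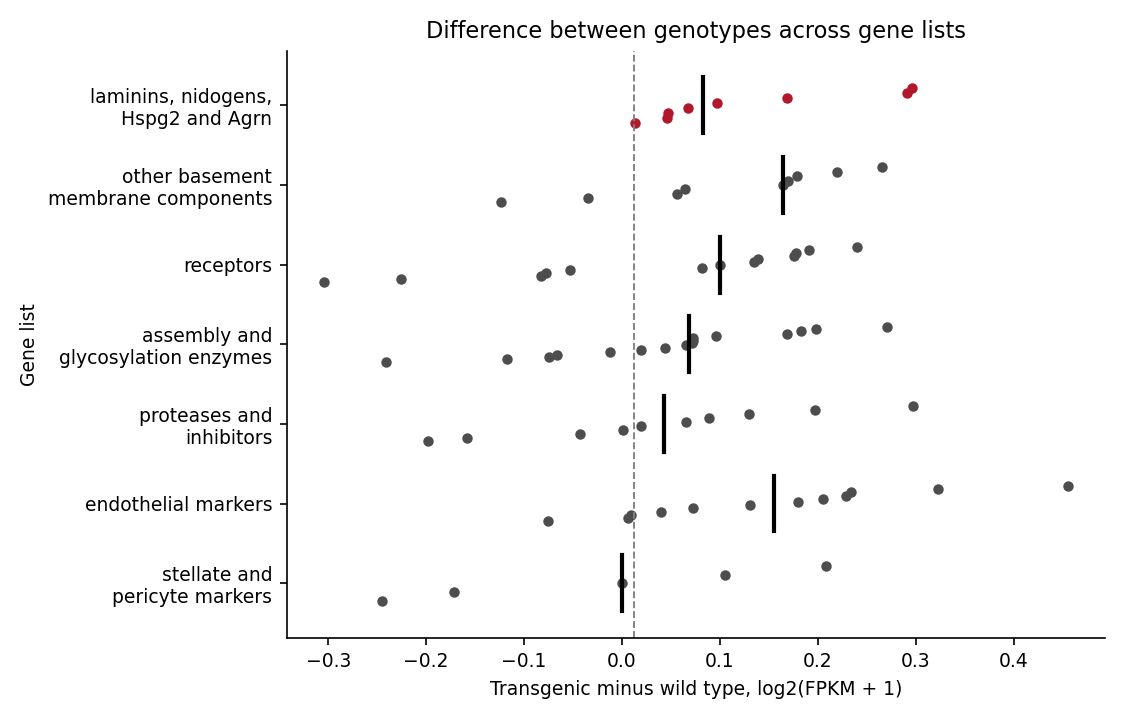
Difference of transgenic minus wild type on the log2(FPKM + 1) scale (horizontal axis) for the genes compared in each list (vertical axis), a point for each gene, a thick bar for the list's median and a dashed line for the median of all genes compared (0.01). The medians lie between 0.00 for stellate and pericyte markers and 0.16 for the other basement membrane components, and the 8 genes in red all lie above 0. The lists of other laminin chains and of acinar, duct, Schwann and beta cell markers are not plotted. All 12 acinar and all 7 duct genes compared lie above 0 too, against 53.3% of all genes compared.

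Markers of the cells that could supply these transcripts were set beside them. The 14 endothelial genes summed to 141 and 110 FPKM in transgenic islets, against 114 and 93.0 FPKM in wild-type islets, so the sum was higher in the transgenic library of each number while the groups overlapped. Of the 12 compared, 11 had a log2 difference above 0, against 53.3% of all genes compared. Their median was 0.16 (0.11 with the GC curve removed), and limma called 0. In both numbers 7 of the 12 were higher, against 33.5% of all genes compared. Both transgenic libraries lay above both wild-type ones for 2, against 12.2%, and below them for 0, against 9.03%. Plvap, a gene of fenestrated capillaries, had 66.0 and 46.3 FPKM in transgenic islets, against 45.4 and 35.3 FPKM in wild-type islets, but Kdr and Emcn, also of endothelium, overlapped between genotypes at 11.9 and 7.64 against 10.7 and 6.96 FPKM and at 7.42 and 9.96 against 8.10 and 8.59 FPKM. The summed level of the 9 basement membrane genes was 23.4 and 19.9 FPKM in transgenic islets, against 19.3 and 18.6 FPKM in wild-type islets. The part of endothelial RNA in the levels of Hspg2, Lamb2 and Agrn was not tested.

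The 12 stellate and pericyte genes, led by Rgs5, Mcam and Acta2, summed to 38.2 and 39.7 FPKM in transgenic islets, against 41.6 and 41.5 FPKM in wild-type islets. The 9 Schwann cell and neuron genes, among them Tubb3 and Mbp, summed to 63.0 and 40.6 FPKM against 68.1 and 36.6 FPKM. The stellate and pericyte sum was lower in both transgenic libraries than in both wild-type ones, while the Schwann cell and neuron sums overlapped. Of the 5 stellate and pericyte genes compared, 1 had both transgenic libraries below both wild-type ones, against 9.03% of all genes compared. The reverse held for 0 of them, against 12.2%. The median log2 differences of these lists were 0.00 and 0.04. The acinar genes, led by Ctrb1, Prss2 and Cela2a, were higher in the transgenic library of each number, with a median of 0.62, and the duct genes, led by Krt8, Krt18 and Epcam, had a median of 0.08. The 10 beta cell genes, led by Ins2, Ins1 and Iapp, summed to 151540 and 271466 FPKM in transgenic islets, against 223828 and 286857 FPKM in wild-type islets, with a median log2 difference of -0.06. Limma and voom, with genotype as the only term, called 0 genes of these 5 lists. Beta cell transcripts were abundant, and no gene of the 6 marker lists was at 0 in any library. Detection of a listed transcript does not by itself show that the cell type was present.

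The profile of Lamc1 over the 4 libraries was shared by many genes. The nearest genes, by Euclidean distance between log2(FPKM + 1) values centred on each gene's mean, were Chmp1a (distance 0.009), Nek3, Trim7, Irak2 and Rbbp4 (0.017 to 0.018 for the other 4). Chmp1a had 22.3 and 20.5 FPKM in transgenic islets, against 20.8 and 20.6 FPKM in wild-type islets. Within a distance of 0.1 lay 667 genes, none of them among the other basement membrane genes compared, of which the closest was Nid1 at 0.16 and the farthest Lamb2 at 0.31. With 4 libraries, such likeness is a description only.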

How the data were processed

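The authors deposited 1 table of FPKM with gene lengths and coordinates for 54532 genes in 4 libraries. HTSeq 0.6.0 and the build GRCm38 are named in the submitters' processing notes. The aligner is not named in what was used here. Libraries were made from total RNA with a TruSeq kit, per the labels' protocols. FPKM times gene length gave whole multiples of 1 step per library, within 0.001, for 100% of the values above 0, and these were taken as reads.

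Genes with at least 1 FPKM in at least 2 libraries (12716) were tested on log2(FPKM + 1) by limma 3.58.1 under R 4.3.3. The model held genotype alone and variances were moderated with a trend. Tests were 2-sided, with Benjamini-Hochberg adjustment over these genes and a threshold of 0.05. Fold changes on this scale understate those of low genes. Voom on the recovered reads used the totals implied by each step as library sizes. GC content came from the longest GENCODE M21 transcript, matched by gene ID for 12705 genes, and a lowess curve of span 0.3 on GC content was removed per library in the settings so named. The fits were also run on simulated counts, but that outcome is not reported here and lends no support to the results. The alternatives also cover the pseudocount (0.1), the filter (none, or 5 FPKM), 2 rescalings, the library number as a term and leaving out each library.

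The 9 genes and the lists were chosen with earlier results of these data known. All 9 are named. From each other list of matrix genes the 4 with the smallest p are named, and the other laminin chains, Col4a1 and Col4a2 always. Of each marker list the 3 with the highest mean are named, and of genes like Lamc1 the nearest 5. A few genes that meet these rules are not reported here. Dag1 and Fras1 were singled out after their values were seen. Binomial and Poisson intervals cover counting error only.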

Additional observations from a re-analysis of the deposited data

How the results depend on the processing

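Over all genes and in the lists described, limma with genotype as the only term called 0 genes under each pseudocount, filter, rescaling and GC setting and with any library left out, and voom with genotype as the only term, run in 1 setting, also called 0. The labels do not say that equal numbers mark a shared origin, and with 2 pairs the numbers were not taken to pair the libraries, although their deviations from the group means correlated (r = 0.78 across genes). Limma with the replicate number as a block called 0 genes. Voom on the reads with the replicate block called 204 genes higher and 34 lower, among them 1 of the 8 basement membrane genes compared, Hspg2, which rose (0.36 ± 0.09, adjusted p = 0.0257), and 1 gene of the matrix lists, Itgb8, which fell (-0.52 ± 0.13, adjusted p = 0.0169). With the GC curve also removed it called 56 higher and 15 lower, and neither Hspg2 (0.14 ± 0.10, adjusted p = 0.982) nor Itgb8 (-0.39 ± 0.13, 0.222) was called. The log2 difference changed sign with the GC curve removed for Lama5 (-0.13 in limma and -0.13 in voom with the block), Lamc1 (-0.017 and -0.019) and Nid1 (-0.0037 and -0.0029). Leaving out 1 library gave -0.064 to 0.094 for Lama4, -0.10 to 0.19 for Lama5, -0.080 to 0.21 for Lamb1, 0.14 to 0.45 for Lamb2, -0.0040 to 0.10 for Lamc1, -0.037 to 0.064 for Nid1, -0.11 to 0.30 for Nid2, 0.14 to 0.44 for Hspg2 and 0.12 to 0.22 for Agrn. At 8 bases in place of 7, 1 of the 9 genes held the miR-29 match. None of the 9 genes reached 5 FPKM in 2 libraries, so that filter gave no value for them. Of the values of the list medians over the alternatives, 11 moved by more than the SD between replicates and 47 did not with all libraries kept, while 9 moved and 15 did not with 1 library left out.

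With 2 libraries a group and genotype as the only term, small differences were not detectable. Among the 8 genes compared, Nid2 had as few as 164 reads in a library. The 95% intervals of the 8 genes had upper ends of 0.35 to 0.76 on the log2 scale, and Lamb2 and Hspg2 rest mostly on transgenic 1. With the library number as a term, the limma standard error of Hspg2 was 0.09, against 0.15 without it.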
